A study of Mus musculus with 4 samples.

Results

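The genes described are 10 transcripts that mark mast cells: the mucosal proteases Mcpt1 and Mcpt2, the connective tissue type proteases Mcpt4, Cma1, Tpsb2 and Cpa3, the tryptase Tpsab1, and the receptor genes Kit, Fcer1a and Ms4a2. They were picked by symbol from the deposited expression table, which lists them in capitals as MCPT1, MCPT2, MCPT4, CMA1, TPSB2, CPA3, TPSAB1, KIT, FCER1A and MS4A2, and all 10 of 10 were found among 29871 distinct symbols. RNA had been sequenced from small-intestinal adenomas of mice, with 2 control libraries of genotype APC Min/+ and 2 libraries of genotype PAF KO; APC Min/+. All animals thus carried the Min allele of Apc, a truncating mutation that gives intestinal adenomas, and the groups differed in PAF, taken here as the PCNA-associated factor. The labels do not say which part of the PAF gene was altered or whether libraries were pooled. Nor do they say that the 2 libraries of a group came from separate animals. The p-values thus measure the spread between these samples, which may be technical in the control group. The 2 PAF KO libraries differed in sex-linked transcripts, given below, and so were not repeats of 1 animal. No age or treatment was given. Values are FPKM, fragment numbers scaled by transcript length and by library depth, so levels of different genes can be set side by side.

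Mast cells are tissue-resident leukocytes that store proteases in granules bound to proteoglycan. In the mouse, mucosal mast cells of the gut epithelium and lamina propria are known for the chymases encoded by Mcpt1 and Mcpt2, and connective tissue type mast cells of the submucosa and other sites for the chymases of Mcpt4 and Cma1, the tryptase of Tpsb2 and carboxypeptidase A3. The receptor tyrosine kinase Kit binds stem cell factor and keeps mast cells alive, while Fcer1a and Ms4a2 encode the alpha and beta chains of the high-affinity IgE receptor that triggers granule release. Mucosal mast cells expand in the intestine under T cell cytokines and interleukin-9, and transforming growth factor beta is known to induce Mcpt1 in them.

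The members lie at a few places in the genome. Mcpt1, Mcpt2, Mcpt4 and Cma1 sit together on chromosome 14 in a cluster of chymase and granzyme genes, and Tpsb2 and Tpsab1 are neighbours on chromosome 17. Cpa3 is on chromosome 3, Kit on chromosome 5, Fcer1a on chromosome 1 and Ms4a2 on chromosome 19. In the RefSeq gene table of GRCm38.p6, Tpsab1 is listed as a transcribed pseudogene and the other 9 are not. The 250 bases upstream of the annotated start are shown for 4 proteases that were lower together and for Ms4a2, a receptor gene that was not, so that the promoters can be compared. Sequences are from RefSeq, build GRCm38.p6, written 5′ to 3′ on the gene's strand, and capitals mark AGATAA or TGATAA on either strand, the letters bound by GATA factors.
Mcpt1, chr14:56017714-56017963, strand +: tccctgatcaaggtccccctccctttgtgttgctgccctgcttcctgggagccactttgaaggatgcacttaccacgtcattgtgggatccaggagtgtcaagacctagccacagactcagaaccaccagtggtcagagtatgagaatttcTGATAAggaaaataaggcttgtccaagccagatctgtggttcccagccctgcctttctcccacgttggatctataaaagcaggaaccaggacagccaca
Mcpt4, chr14:56062311-56062560, strand -: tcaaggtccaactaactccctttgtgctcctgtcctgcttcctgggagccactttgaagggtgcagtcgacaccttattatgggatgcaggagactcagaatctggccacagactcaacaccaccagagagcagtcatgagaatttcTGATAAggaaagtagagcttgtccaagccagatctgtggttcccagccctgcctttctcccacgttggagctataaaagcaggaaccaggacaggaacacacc
Cma1, chr14:55944676-55944925, strand -: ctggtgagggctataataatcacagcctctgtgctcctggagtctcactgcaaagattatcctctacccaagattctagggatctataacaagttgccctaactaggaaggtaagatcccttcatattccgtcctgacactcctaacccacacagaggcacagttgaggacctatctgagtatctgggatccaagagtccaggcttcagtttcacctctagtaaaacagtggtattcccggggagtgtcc
Cpa3, chr3:20242182-20242431, strand -: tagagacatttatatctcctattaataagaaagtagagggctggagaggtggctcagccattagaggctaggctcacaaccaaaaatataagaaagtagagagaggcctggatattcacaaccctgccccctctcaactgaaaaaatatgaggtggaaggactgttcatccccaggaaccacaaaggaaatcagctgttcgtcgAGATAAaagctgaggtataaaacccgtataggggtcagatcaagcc
Ms4a2, chr19:11623720-11623969, strand -: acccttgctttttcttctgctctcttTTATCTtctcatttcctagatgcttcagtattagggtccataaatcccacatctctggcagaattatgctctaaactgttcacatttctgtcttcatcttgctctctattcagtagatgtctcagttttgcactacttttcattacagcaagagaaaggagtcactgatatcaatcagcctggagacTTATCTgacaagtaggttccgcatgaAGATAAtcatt

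The promoters of Mcpt1 and Mcpt4 were alike, with 86.4% identity over 242 aligned bases. Both held TGATAA in the forward direction, starting 99 bases before the start in Mcpt1 and 103 in Mcpt4, and TATAAA at 28 and 32 bases. Cpa3 held AGATAA at 46 bases and TATAAA at 31 bases before its start, and the Cma1 window held neither on either strand. Ms4a2 held the GATA letters at 3 places, 224, 37 and 11 bases before the start. Promoter sequences were matched for 7 members, and 5 of them, Mcpt1, Mcpt4, Cpa3, Fcer1a and Ms4a2, held AGATAA or TGATAA, which stood in 16.6% of all 32851 promoter windows of this length. The bases after the start in the Fcer1a entry were not found in the gene's GENCODE M21 transcripts, so its window may not end at the start of the transcript. It counts among the windows with GATA letters, RUNX letters and TATAAA and is the single one with Mitf letters. TATAAA stood in 4 of the 7 and in 12.4% of all windows. TGTGGT, the core bound by RUNX factors, stood in 4 of 7 and in 14.05% of all windows, and CATGTG or CACGTG, bound by the mast cell factor Mitf, in 1 of 7 and in 17.6%. The AP-1 letters TGANTCA (6.75% of all windows) and the Smad letters CAGACA (17.1%) were searched likewise on both strands and stood in 0 of the 7 windows. GATA letters thus stood in windows of members that were lower in the PAF KO adenomas and of members that were not, and a match of letters describes the window and is not a binding site.

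As a check of the samples, all 12 listed genes of small-intestinal epithelium, such as Vil1, Cdx2 and Epcam, were present in every library. Their summed levels were 9997 to 10090 FPKM in the control libraries and 11141 to 11541 in the PAF KO libraries. The 3 of smallest limma p went both ways, so the sum hides differences between genes. Fabp2 read 1119 and 1295 FPKM in the control libraries, 813 in PAF KO library 1 and 342 in the library labelled PAF KO 2. Cdh17 was higher, at 364 and 347 against 468 and 473 FPKM, as was Lgals4, at 1605 and 1619 against 2296 and 2275. FPKM steps of low genes put the depth at about 13300000 and 17500000 fragments in controls 1 and 2, and at 15400000 and 24400000 in PAF KO libraries 1 and 2. The PAF row (2810417H13Rik) read 17.9 and 17.8 FPKM in the control libraries, 4.13 in PAF KO library 1 and 11.4 in the library labelled PAF KO 2. The last value is 63.9% of the control mean, so the transcript level does not bear out the knockout label of that library, and it is called by its label throughout. The library labelled PAF KO 2 also stood apart from the rest and was the only one with the female transcript Xist (46.4 FPKM, against 0.00438 to 0.00861). The Y-linked gene Eif2s3y read 31.7 and 31.0 FPKM in the control libraries, 26.0 in PAF KO library 1 and 0 in the library labelled PAF KO 2. By these transcripts that library was female and the others male, so sex differed within the knockout group and between the groups. Its smooth muscle gene Myh11 was at 45.1 FPKM against 6.37 to 10.5 in the others. The level of every member is therefore given for both knockout libraries, while some other genes are given only by fold change or overlap. Each direction between the groups rests in part on this library.

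All 7 proteases were lower in both knockout libraries than in both control libraries, while the 3 receptor genes overlapped between the groups. Summed over the proteases, the level was 2842 and 3237 FPKM in the control libraries, 1420.3 in PAF KO library 1 and 1161 in the library labelled PAF KO 2. This made up 0.538% and 0.606% of all FPKM in the control libraries and 0.261% and 0.190% in the PAF KO libraries. In bulk tissue, fewer mast cells and less RNA per mast cell cannot be told apart. Over all 13716 tested rows, those with a mean of at least 1 FPKM, 30.2% were lower in both knockouts than in both controls and 21.5% were higher.

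**Figure D1:**
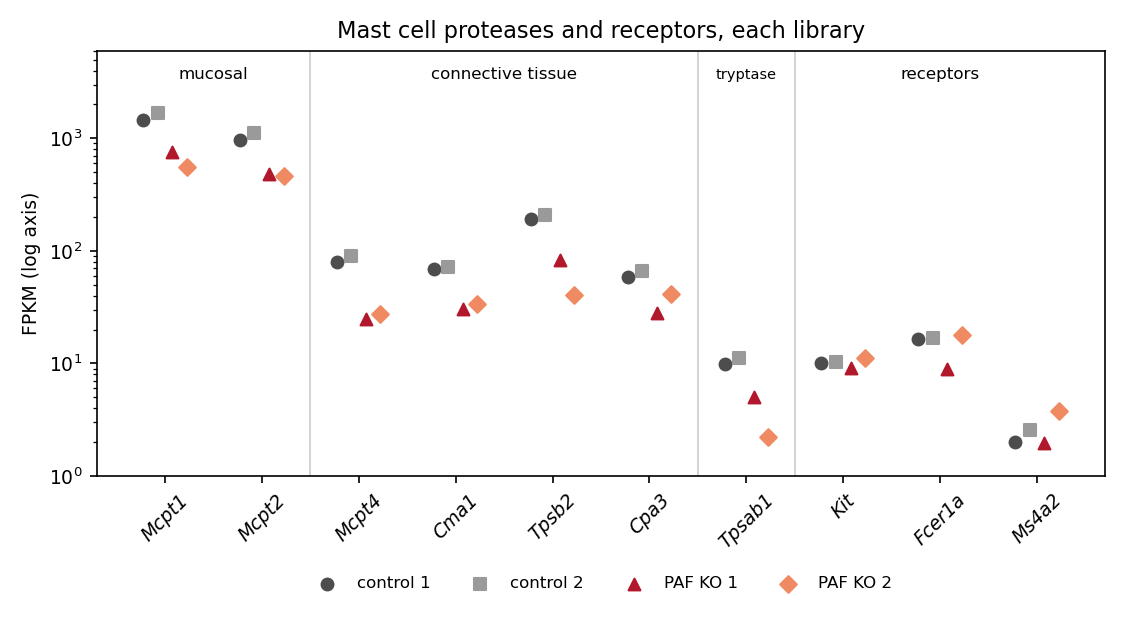
Level of each of the 10 genes (FPKM, log axis) with 1 point per library, controls in grey and PAF knockouts in red and orange; vertical lines part the mucosal proteases, the connective tissue proteases, the tryptase Tpsab1 and the receptors. Both PAF KO points lie below both control points for the 7 proteases, from Mcpt1 (1461 and 1685 against 760.3 and 555 FPKM) to Tpsab1, and not for Kit, Fcer1a or Ms4a2.

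The mucosal chymase genes were by far the most abundant members. Mcpt1 read 1461 and 1685 FPKM in the control libraries, 760.3 in PAF KO library 1 and 555 in the library labelled PAF KO 2. The knockout libraries thus held 48.3% and 35.3% of the control mean, without overlap, a log2 fold change of -1.27 (SE 0.281, 2 libraries per group; limma adjusted p = 0.289). Mcpt2, a chymase-like protease beside Mcpt1 in the cluster, read 972 and 1105 FPKM in the control libraries and 487 and 459.6 in the PAF KO libraries. Its knockout values were close to each other, at 46.9% and 44.3% of the control mean (log2 fold change -1.13, SE 0.215; limma adjusted p = 0.257). The ratio of Mcpt1 to Mcpt2 was 1.503 and 1.53 in the control libraries, 1.56 in PAF KO library 1 and 1.21 in the library labelled PAF KO 2, so that Mcpt1 was relatively lower in the library labelled PAF KO 2 alone.

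Of the connective tissue type chymases, Mcpt4 was the lower in the PAF KO libraries relative to the controls. It read 79.3 and 89.5 FPKM in the control libraries and 25.0 and 27.5 in the PAF KO libraries, which is 29.6% and 32.6% of the control mean. Its log2 fold change of -1.65 (SE 0.169) had the smallest p of the 10 members (limma adjusted p = 0.184) and did not pass the threshold of 0.05. Cma1, the single alpha-chymase gene of the mouse, read 68.6 and 71.7 FPKM in the control libraries and 30.8 and 33.96 in the PAF KO libraries. It retained 43.9% and 48.4% of the control mean (log2 fold change -1.09, SE 0.160; limma adjusted p = 0.237). The pair changed order: the ratio of Mcpt4 to Cma1 was 1.16 and 1.25 in the control libraries and 0.812 and 0.809 in the PAF KO libraries, a description with no test.

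Tryptases and the carboxypeptidase differed between the knockout libraries. Tpsb2, which encodes the tryptase mMCP-6, read 192 and 209 FPKM in the control libraries, 83.7 in PAF KO library 1 and 40.9 in the library labelled PAF KO 2. It had the lowest fold change of the 10 genes, -1.76 (SE 0.404; limma adjusted p = 0.294), with 41.7% of the control mean in the first PAF KO library and 20.4% in the second. Tpsab1 read 9.85 and 11.2 FPKM in the control libraries and 5.0 and 2.23 in the PAF KO libraries, with the same order of the libraries (log2 fold change -1.39, SE 0.364; limma adjusted p = 0.317). The ratio of Tpsb2 to Tpsab1 lay between 16.7 and 19.5 in the 4 libraries. Cpa3, a granule carboxypeptidase that both mast cell types hold, moved the other way within the group. It read 58.6 and 66.2 FPKM in the control libraries, 28.3 in PAF KO library 1 and 41.1 in the library labelled PAF KO 2 (log2 fold change -0.85, SE 0.249; limma adjusted p = 0.331). The library labelled PAF KO 2 therefore kept 66.0% of the control level of Cpa3 and 20.4% of that of Tpsb2, and the ratio of Tpsb2 to Cpa3 was 0.993 there against 2.96 to 3.28 in the other 3 libraries.

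The receptor genes did not follow the proteases. Kit read 10.2 and 10.3 FPKM in the control libraries, 9.14 in PAF KO library 1 and 11.2 in the library labelled PAF KO 2, a log2 fold change of -0.016 (SE 0.178; limma adjusted p = 0.969). The controls lay between the knockouts, and the sign of this small value turned under quantile scaling (0.047) and median centring (0.041). Fcer1a, the IgE-binding alpha chain, read 16.4 and 16.8 FPKM in the control libraries, 8.91 in PAF KO library 1 and 18.0 in the library labelled PAF KO 2. It was thus lower than the controls in the first PAF KO library (53.7% of their mean) and slightly higher in the second (109%), with a log2 fold change of -0.36 (SE 0.371; limma adjusted p = 0.652). Ms4a2, the beta chain that amplifies the signal, read 2.02 and 2.56 FPKM in the control libraries, 1.97 in PAF KO library 1 and 3.79 in the library labelled PAF KO 2 (log2 fold change 0.20, SE 0.322; limma adjusted p = 0.756). Each receptor gene was lowest in PAF KO library 1 and highest in the library labelled PAF KO 2. The mean of the proteases minus the mean of the receptors, in log2(FPKM + 1), was 4.05 and 4.11 in the control libraries, 3.27 in PAF KO library 1 and 2.40 in the library labelled PAF KO 2, also a description with no test.

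**Figure D2:**
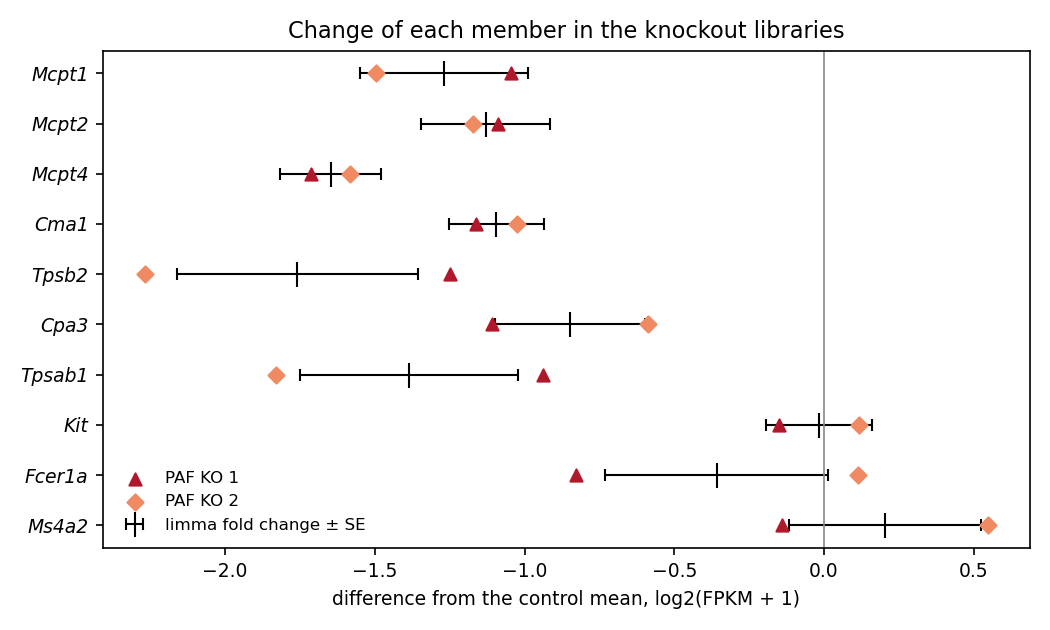
Difference of each knockout library from the control mean on the log2(FPKM + 1) scale for the 10 genes (triangles, PAF KO 1; diamonds, PAF KO 2), with the limma fold change and its SE as bars. The proteases lie between -0.59 and -2.27 in both libraries, and the receptor genes on both sides of 0.

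By limma with Benjamini-Hochberg adjustment over all tested rows, 0 of the 10 members passed, where 0.0729% of all tested rows were called lower. At an unadjusted p under 0.05 the 7 proteases were lower, against 9.76% of all tested rows, and 0 members were higher, against 3.44%. Of the 3 receptor genes 0 passed in either direction, against 13.2% of all tested rows. The median log2 fold change was -1.11 over the 10 members and -1.27 over the 7 proteases, beside 0.0035 over all tested rows. The calls turned on a single library. Without PAF KO library 1 the adjusted threshold was passed by 7 members, the 7 proteases, while 27.1% of all rows were called lower; without the library labelled PAF KO 2 it was passed by 8, the proteases and Fcer1a (-0.83), while 14.4% of all rows were called lower. Each of these fits assumes that the lone knockout library varies like the controls. Without either control library 0 members and 0 rows were called. Counting error was small beside the differences in the proteases: the fewest estimated fragments behind a value were 105 for Tpsab1 (a counting error of 9.76%) and at least 426 for the others. For the receptors they were 64 for Ms4a2 (12.5%), 137 for Fcer1a (8.55%) and 712 for Kit.

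Mucosal and connective tissue type proteases were both lower in the PAF KO adenomas. The libraries of the 2 groups overlapped in the difference between the class means of log2 values, but not in the ratio of the class sums. Mcpt1 and Mcpt2 together read 2433 and 2789 FPKM in the control libraries and 1247 and 1015 in the PAF KO libraries. Mcpt4, Cma1, Tpsb2 and Cpa3 together read 399 and 437 FPKM in the control libraries and 168 and 143 in the PAF KO libraries. The mean log2 fold change was -1.20 for the mucosal class and -1.34 for the connective tissue class, a difference of -0.14. Within single libraries, the connective tissue class mean minus the mucosal class mean was -3.74 and -3.80 in the control libraries, -4.01 in PAF KO library 1 and -3.80 in the library labelled PAF KO 2. The library labelled PAF KO 2 was therefore level with the controls in this measure, and in it the difference between classes rested on PAF KO library 1. The difference was -0.24 without the library labelled PAF KO 2, -0.031 without PAF KO library 1 and -0.30 with Cpa3 left out of its class. It is given as a description, with no test. Mucosal proteases made up 85.6% and 86.2% of protease FPKM in the control libraries and 87.8% and 87.4% in the PAF KO libraries. The ratio of the mucosal to the connective tissue sum was 6.10 and 6.39 in the control libraries. It was 7.43 in PAF KO library 1 and 7.07 in the library labelled PAF KO 2, so both stood above the controls in the sums. The 2 measures thus differ for the library labelled PAF KO 2.

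**Figure D3:**
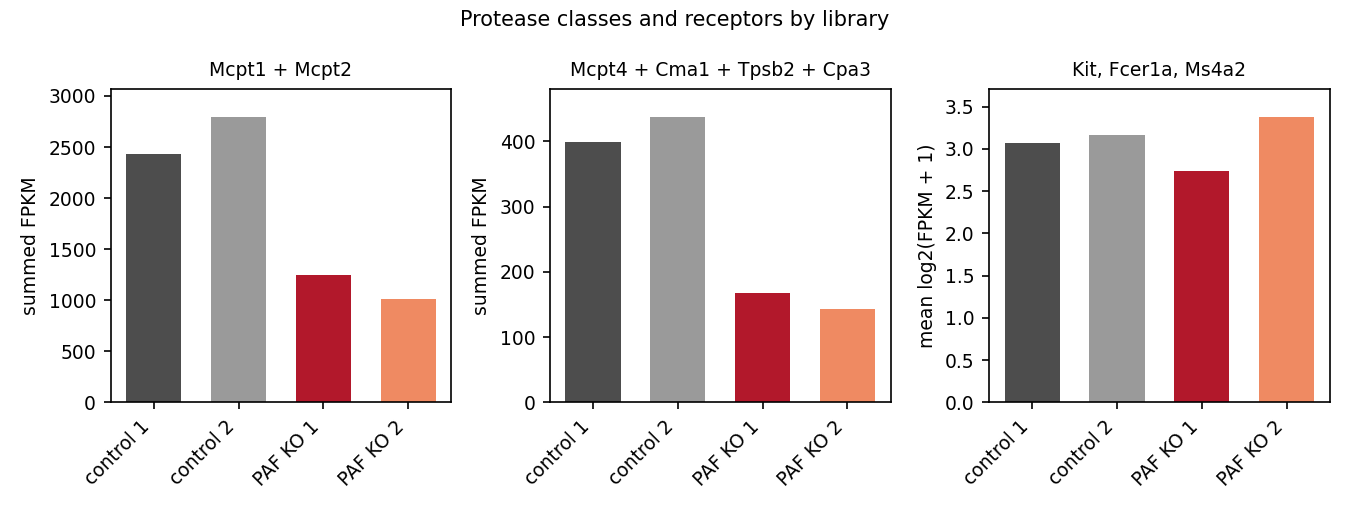
Bars give, per library, the summed FPKM of the mucosal proteases (left) and of the connective tissue type proteases (middle), and the mean log2(FPKM + 1) of the 3 receptor genes (right), all from 0. Both protease sums were lower in both knockouts (2433 and 2789 against 1247 and 1015 FPKM for the mucosal class), and the receptor mean was lowest in PAF KO library 1 and highest in the library labelled PAF KO 2.

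Paralogues in the chymase cluster resemble each other, which bears on how reads were assigned. Longest transcripts of Mcpt1 and Mcpt2 shared 81.8% of aligned bases, and those of Mcpt1 and Mcpt4 85.2%, but 0% of their 50-base windows were identical. Cma2 and Mcpt9 were the near copies, with 98.1% identity over 809 bases and 40.9% of the 50-base windows of Cma2 also in Mcpt9, so that the values of these genes are uncertain. Mcpt4 had 5.48% of its windows in common with Cma2. Tpsb2 and Tpsab1 shared 69.6% of aligned bases and no 50-base window. The transcripts are those of GENCODE M21, and the read length is not given in the labels.

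Across the chymase cluster, the 8 protein-coding genes with a mean of at least 1 FPKM were lower in both knockouts, where 30.2% of all tested rows were, and the pseudogene Mcpt-ps1 overlapped between groups. Besides the 4 members these were Cma2, a chymase gene, at 27.8 and 33.7 FPKM in the control libraries and 13.9 and 27.5 in the PAF KO libraries, Mcpt9 at 2.53 and 3.58 against 1.26 and 2.43, and Mcpt8, a basophil protease, at 4.23 and 4.08 against 3.46 and 2.21. Gzmb, a granzyme of cytotoxic lymphocytes at the far end of the cluster, read 31.2 and 27.8 against 13.1 and 13.1 FPKM (log2 fold change -1.11, SE 0.157; limma adjusted p = 0.237). Of these 4 neighbours, 0 passed the adjusted threshold, 1 was lower at an unadjusted p under 0.05, against 9.76% of all tested rows, and their median log2 fold change was -0.57. The genes in between were at or near 0: Ctsg was at most 0.0744 FPKM, Gzmd at most 0.110, Gzme at most 0.578 and Gzmc at most 0.721, and Gzmf, Gzmg and Gzmn were listed at 0 in all 4 libraries. The protein-coding genes with a mean of at least 1 FPKM were thus those from Cma1 to Mcpt8, and Gzmb alone at the other end. They included Mcpt8 and Gzmb, named above for other cell types.

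**Figure D4:**
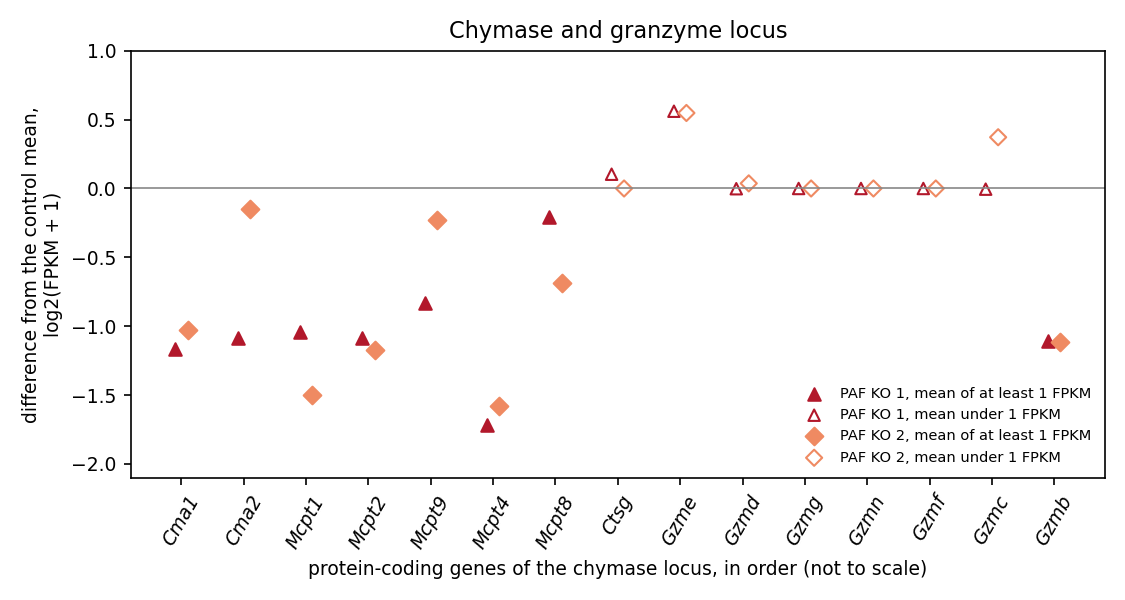
Difference of each knockout library from the control mean, log2(FPKM + 1), for the 15 protein-coding genes from Cma1 to Gzmb in chromosomal order, not to scale; filled symbols are genes with a mean of at least 1 FPKM and open symbols genes below it. All filled symbols lie below 0, from -0.15 for Cma2 in PAF KO 2 to -1.71 for Mcpt4 in PAF KO 1.

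Among other granule proteases and mediators of mast cells, some were lower in both PAF KO libraries and some were not. Of 15 genes found, 14 were tested and 0 passed the adjusted threshold; 2 were lower and 0 higher at an unadjusted p under 0.05, against 9.76% and 3.44% of all tested rows, and the median was -0.49. The members of smallest p were Tph1, a tryptophan hydroxylase of serotonin synthesis that enterochromaffin cells also hold, Ndst2, which sulphates the heparin that retains granule proteases, and Hdc, which makes histamine. Tph1 read 15.9 and 17.6 FPKM in the control libraries and 10.3 and 8.92 in the PAF KO libraries. Ndst2 read 8.46 and 9.91 against 6.32 and 5.96 FPKM. Hdc read 3.26 and 3.91 FPKM in the control libraries, 2.57 in PAF KO library 1 and 1.13 in the library labelled PAF KO 2. All 3 were below both controls in both knockouts, Hdc most in the library labelled PAF KO 2. Without overlap between the groups, 7 of the 14 tested genes were lower and 1 higher, against 30.2% and 21.5% of all tested rows. The median of the list was -0.42 in PAF KO library 1 and -0.15 in the library labelled PAF KO 2.

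Genes of mast cell growth and fate included some that were lower and some that were higher, among them the cytokine Il33. Of 18 found, 15 were tested, 0 passed the adjusted threshold, and 3 were lower and 1 higher at an unadjusted p under 0.05, against 9.76% and 3.44% of all tested rows (median -0.45). Without overlap between the groups, 8 of the tested genes were lower and 2 higher, against 30.2% and 21.5% of all tested rows. Il33, an alarmin that activates mast cells through the receptor Il1rl1, read 38.6 and 37.6 FPKM in the control libraries and 103 and 69.3 in the PAF KO libraries (log2 fold change 1.13, SE 0.256, limma adjusted p = 0.291). Il1rl1 was also higher, at 65.2 and 63.6 against 85.7 and 74.3 FPKM (limma adjusted p = 0.489). Gata1, a transcription factor of mast cells and erythroid cells, read 2.35 and 1.505 against 0.399 and 0.285 FPKM, and Csf2rb2, a receptor chain for interleukin-3, read 9.13 and 9.65 against 4.23 and 5.61. Neither overlapped between groups, while limma adjusted p was 0.303 for Gata1 and 0.301 for Csf2rb2. Gata2, which mast cells need together with Mitf, read 7.25 and 7.66 FPKM in the control libraries, 5.304 in PAF KO library 1 and 2.28 in the library labelled PAF KO 2. Kitl, the stem cell factor that Kit binds, overlapped between groups at 46.8 and 42.1 against 27.5 and 47.3 FPKM. The library order of Gata2 was that of Tpsb2 and Tpsab1, but also that of the epithelial gene Fabp2. The low value of Kitl was in PAF KO library 1, as for Fcer1a.

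Downstream of the IgE receptor, 16 genes were found, 14 tested and 0 passed the adjusted threshold, with 2 lower and 1 higher at an unadjusted p under 0.05, against 9.76% and 3.44% of all tested rows, and a median of -0.42. Without overlap between the groups, 7 of the 14 tested genes were lower and 1 higher, against 30.2% and 21.5% of all tested rows. Stim1, the calcium sensor of the endoplasmic reticulum, read 24.9 and 23.2 FPKM in the control libraries and 13.03 and 14.2 in the PAF KO libraries. Lat, an adaptor that T cells also use, read 3.27 and 4.23 against 1.04 and 1.71 FPKM, and the kinase gene Lyn was higher, at 11.3 and 10.3 against 14.9 and 16.9. Fcer1g, the gamma chain that the IgE receptor shares with other Fc receptors of myeloid cells, overlapped between groups at 37.4 and 51.5 against 40.8 and 49.4 FPKM.

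Markers of other cells that express some of these genes were measured beside them. General leukocyte markers summed to 173 and 201 FPKM in the control libraries, 125 in PAF KO library 1 and 220.5 in the library labelled PAF KO 2, and their median difference from the controls was -0.50 and 0.46 in the PAF KO libraries. All 10 were tested and 0 passed the adjusted threshold; Laptm5, Rac2 and Ptpn6 had the smallest p, with log2 fold changes of -1.20, -0.63 and -0.35. PAF KO library 1 was lowest and the library labelled PAF KO 2 highest in this sum, as in each of the 3 receptor genes. The part of leukocyte content in the levels of the members was not tested. Markers of interstitial cells of Cajal, pacemaker cells of the gut wall that also need Kit, summed to 46.1 and 39.2 FPKM in the control libraries and 41.6 and 66.8 in the PAF KO libraries. Ano1, their chloride channel, read 27.6 and 23.4 against 19.0 and 39.5 FPKM, while their factor Etv1 was at most 1.08. Of the 7 markers, 5 were tested and 0 passed the adjusted threshold; Thbs4, Cacna1h and Elovl6 had the smallest p, with log2 fold changes of 1.60, -0.91 and 0.67. Their part in the level of Kit was not tested.

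Basophils share Fcer1a, Ms4a2 and Cpa3 with mast cells, and their markers differed widely in level. Mcpt8 read 4.23 and 4.08 FPKM in the control libraries and 3.46 and 2.21 in the PAF KO libraries. Prss34 was at most 0.136 FPKM and Il4 at most 0.180. Itga2, an integrin chain that other cells also hold, read 11.5 and 10.5 FPKM in the control libraries and 12.6 and 16.0 in the PAF KO libraries, and the whole list summed to 20.0 and 18.3 FPKM in the control libraries and 28.0 and 25.6 in the PAF KO libraries. Of 8 markers, 4 were tested and 0 passed the adjusted threshold; the smallest p were those of Il6, a cytokine of many cells, Cd200r3 and Mcpt8. Il6 read 0.623 and 0.740 against 10.9 and 3.55 FPKM, and Cd200r3, a receptor that mast cells hold too, 2.56 and 2.22 against 0.538 and 1.46. Without overlap between the groups, 2 tested markers were lower (Mcpt8 and Cd200r3) and 2 higher (Il6 and Itga2). Of all tested rows, 30.2% were lower and 21.5% higher in this way. The higher sum of the list in the PAF KO libraries thus hides opposite directions. Eosinophil markers summed to 13.3 and 10.8 FPKM in the control libraries, 5.77 in PAF KO library 1 and 21.9 in the library labelled PAF KO 2, and the eosinophil peroxidase gene Epx was at most 0.0208. Of these 7, 4 were tested and 0 passed the adjusted threshold; Prg2, Siglecf (row Siglec5) and Alox15 had the smallest p and overlapped between groups. The eosinophil ribonuclease gene Ear2 read 3.63 and 2.70 FPKM in the control libraries, 0.555 in PAF KO library 1 and 6.48 in the library labelled PAF KO 2. Among the granule genes in both lists, Mcpt8, Prss34, Epx, Prg2 and Ear2, the highest value was this last one.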

How the data were processed

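The authors deposited FPKM values, 1 column for each library; per the submitters' processing notes TopHat2, Cuffdiff and mm9 were used (settings: not given in the sources used here). Where a symbol stood on several rows (84 of 29955 rows were repeats), the 1 of higher mean was used. The 13716 rows averaging 1 FPKM or more, all 10 members among them, were fitted with limma 3.58.1 (R 4.3.3) on log2(FPKM + 1) with a mean trend, and p-values were adjusted over these rows by Benjamini-Hochberg. This scale understates changes of low genes. Fragment numbers were estimated from the FPKM steps of low single-transcript genes and are approximate. Builds differ, so reference coordinates serve only for the GRCm38.p6 promoters. Biopython 1.88 aligned transcripts. The fit was also run on simulated data, and its recovery of changes there is not reported here. Members and lists were chosen with earlier results of these data known. Genes named are the members, PAF, the chymase neighbours, Kitl, Gata2, Fcer1g, Ano1 and the 3 of smallest p in each other list. Xist, Eif2s3y, Myh11, Vil1, Cdx2, Epcam, Etv1, Il1rl1, Prss34, Il4, Itga2, Ear2, Mcpt-ps1 and Epx were named after their values were seen. Alternatives were a pseudocount of 0.1, no filter, a filter at 5 FPKM, quantile scaling, median centring, no trend, a replicate block, changed protease classes and each library left out.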

Additional observations from a re-analysis of the deposited data

How the results depend on the processing

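The 7 proteases kept a negative log2 fold change in all 77 of the alternative values, between -2.27 and -0.59, and in the 49 values with no library left out the lowest limma adjusted p was 0.177. The count of members called was 0 in every setting with all libraries, and 0 to 8 with each library left out in turn. The count of rows called was 10, became 5 with no filter, and lay between 0 and 8397 with each library left out. The median over the members was -1.05 with median centring and -1.17 to -1.05 with a library left out. The difference between connective tissue and mucosal classes was -0.30 without Cpa3 in its class, and -0.24 to -0.031 with a library left out. The count of members lower in every remaining knockout than in every remaining control lay between 7 and 10 with a library left out. The 10 came without the library labelled PAF KO 2, where 1 knockout library remained. Fewer libraries make such an order more common among all rows, and its share over them was not computed for these settings. For Kit the value turned to 0.047 with quantile scaling and 0.041 with median centring, and lay between -0.15 and 0.12 with a library left out. It lay between -0.83 and 0.11 for Fcer1a and between -0.14 and 0.55 for Ms4a2. The cause of these changes was not tested. With a replicate block, 13 rows and 0 members were called. Same-numbered libraries did not deviate together (correlation of deviations -0.115 across rows), and nothing in the labels says that a number marks a shared animal or day; with crossed numbers, chosen after seeing the data, 13 rows and 0 members were called. Depth limits the reading of Ms4a2 most, with 64 estimated fragments in 1 control library.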

Other observations

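Mcpt-ps1, a transcribed pseudogene between Cma1 and Cma2 in the chymase cluster, read 5.26 and 5.105 FPKM in the control libraries, 3.43 in PAF KO library 1 and 6.43 in the library labelled PAF KO 2. It overlapped between the groups, unlike Cma1 and, by a narrow margin, Cma2. Cma2 read 27.5 FPKM in the library labelled PAF KO 2 against 27.8 in control 1, and its value is uncertain as a near copy of Mcpt9. Mcpt-ps1 was chosen after its values were seen. Tpsg1, the transmembrane tryptase gene next to Tpsb2, read 14.9 and 14.2 FPKM in the control libraries and 15.04 and 20.5 in the PAF KO libraries, and so did not share the lower level of its neighbours Tpsb2 and Tpsab1. Syk, the kinase that acts directly below the IgE receptor, was listed at no more than 0.0239 FPKM in any library, although Lyn and Fcer1g, which act beside it, were at 10.3 FPKM or more; a value near 0 in such a table can be a failed estimate. Tgfb1, whose product is known to induce Mcpt1, read 34.9 and 37.8 FPKM in the control libraries, 27.5 in PAF KO library 1 and 12.6 in the library labelled PAF KO 2. Mcpt1 had the same order of libraries, and so had Mcpt2, Gata2, Tpsb2 and Tpsab1. Hdc and the epithelial gene Fabp2 had it too, so the order was not particular to these genes. The share of all rows with this order was not computed. Itgb6, a subunit of an integrin that activates transforming growth factor beta at epithelia, read 18.5 and 17.0 FPKM in the control libraries and 11.2 and 14.3 in the PAF KO libraries, another order. A part of Tgfb1 or Itgb6 in the level of Mcpt1 was not tested. These 4 genes, Tpsg1, Syk, Tgfb1 and Itgb6, were named after their values were seen, and limma adjusted p was 0.591 for Tpsg1, 0.437 for Tgfb1 and 0.421 for Itgb6, while Syk was below the filter.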
